A study of Mus musculus with 4 samples.

Results

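The interleukin-1 (IL-1) receptor family and its ligands were followed through the cell classes of the mouse hippocampus. The 10 genes, of 56748 in the count tables, were taken by symbol and not by any measured value: the signalling receptor *Il1r1*, the co-receptor *Il1rap*, its brain relatives *Il1rapl1* and *Il1rapl2*, the decoy receptor *Il1r2*, the inhibitory receptor *Sigirr*, the IL-33 receptor *Il1rl1*, the IL-18 receptor *Il18r1*, and the ligands *Il18* and *Il33*. All 10 had at least 1 count.

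Counts of unique transcripts (UMIs) in single nuclei came from 8 pools of hippocampus, each made from 3 male mice and each the only pool of its condition. In the genotype experiment, IL-1R1+/+ mice without Cre and nIL-1R1-/- mice, in which Cre driven by *Vglut2* (*Slc17a6*) removes *Il1r1*, were left undisturbed (Con) or exposed to repeated social defeat (RSD, labelled Stress), in which an aggressor entered the home cage for 2 h on each of 6 nights. In the diet experiment, mice received vehicle chow or chow with PLX5622, a CSF1R inhibitor that depletes microglia, starting 7 days ahead of RSD, and were then controls or underwent RSD. C57BL/6 mice in the study were bought at 5 to 7 weeks of age, and the genotype lines were bred in-house; the age of the mice in each pool was not given in the sources used here. Nuclei were collected 14 h after RSD ended. *Vglut2* is expressed in the lineage of many glutamatergic neurons, so cells outside that lineage keep the gene in nIL-1R1-/- mice.

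Of 57350 nuclei, 56834 were kept, and 37000 fell into 17 classes named from known markers. Names such as DG-like (dentate gyrus granule neurons), INH-like (inhibitory neurons) and OPC-like (oligodendrocyte precursors) mean that the nuclei carried those markers. None of the 10 genes entered the clustering. The remaining 19834 nuclei (34.9%) stayed unnamed, median depth ran from 598 UMIs per nucleus in Control-PLX5622 to 5012 in Con-nIL-1R1-/-, and no nucleus barcode was shared between pools. Unnamed nuclei were 3940 of 7382 in Control-PLX5622 and 4018 of 7678 in Stress-PLX5622. In the other pools their share was lowest in Con-IL-1R1+/+ (1383 of 7554) and highest in Stress-Vehicle (2678 of 7332). Microglia-like nuclei numbered 413, and 0 of 7382 and 0 of 7678 nuclei were microglia-like in the PLX5622 pools (a share of up to 0.0406% and 0.0391%), where *Csf1r*, the receptor that the drug blocks, stood at 1.7 and 1.19 CPM against 5.54 to 14.1 CPM in the other 6 pools. CPM is the count of a gene per 1000000 UMIs of its class or pool.

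IL-1 binds IL-1R1, which then recruits the accessory protein encoded by *Il1rap* and signals through MyD88 and IRAK kinases to NF-kB. The same accessory protein serves the IL-33 receptor, while IL-1R2 captures IL-1 without signalling and SIGIRR dampens the pathway. IL1RAPL1 and IL1RAPL2 are better known as synaptic adhesion proteins that pair with receptor tyrosine phosphatases than as cytokine receptors. In brain, endothelial cells carry IL-1R1 as well as granule neurons, and IL-33 is released from nuclei of glia as an alarm signal.

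On GRCm39 (GENCODE vM39), the build that the submitters' notes also name, 4 of the genes lie in 1 region on the plus strand of chromosome 1: *Il1r2* (40113239 to 40164391), *Il1r1* (40264174 to 40356417), *Il1rl1* (40468730 to 40504575) and *Il18r1* (40504712 to 40540014). The accessory genes lie on chromosome 16 (*Il1rap*, 26400350 to 26548880, plus strand) and the X chromosome (*Il1rapl1*, 85784476 to 87159281, minus strand, and *Il1rapl2*, 136471357 to 137749670, plus strand). *Sigirr* is on chromosome 7 (140670832 to 140680517, minus strand), *Il18* on chromosome 9 (50466081 to 50493633, plus strand) and *Il33* on chromosome 19 (29902483 to 29938933, plus strand). Nuclear RNA is largely unspliced, so levels of different genes were compared per kb of whole gene. On that scale *Il1rap* was the most abundant, at 320.0 UMIs per kb over all nuclei, followed by *Il1rapl1* at 227, *Il18* at 75.6, *Il1rapl2* at 48.6, *Il33* at 30.9 and *Il1r1* at 30.6. The other 4 stood at 4.52 (*Il1r2*), 2.79 (*Sigirr*), 1.3 (*Il18r1*) and 0.502 UMIs per kb (*Il1rl1*). Whether counting used the strand is not given in the sources used here, so reads of *Il1r2* and of *Gm16894*, an antisense transcript over it with 1968 UMIs against 231 for *Il1r2*, cannot be told apart, and the same holds for *Il1rap* and *Gm20319* (1609 UMIs) and for *Il18* and *Bco2* (97 UMIs).

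*Il1r1* and *Il33* each have more than 1 annotated start, and these starts are shown because the classes in which the genes were counted differ and a count per gene cannot tell which start was used. The sequences run from 250 bases before to 50 after a start (RefSeq, GRCm38.p6, plus strand), with capitals for TATAAA on either strand. The first is at chr1:40224830-40225129, the second at chr1:40266336-40266635, the third at chr19:29924863-29925162 and the fourth at chr19:29945540-29945839.
Il1r1 first start: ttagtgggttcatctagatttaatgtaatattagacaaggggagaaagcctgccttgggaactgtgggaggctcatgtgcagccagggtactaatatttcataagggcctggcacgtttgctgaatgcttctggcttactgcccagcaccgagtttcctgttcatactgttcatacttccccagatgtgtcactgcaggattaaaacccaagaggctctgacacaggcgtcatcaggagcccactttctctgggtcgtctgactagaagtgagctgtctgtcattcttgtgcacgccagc
Il1r1 second start: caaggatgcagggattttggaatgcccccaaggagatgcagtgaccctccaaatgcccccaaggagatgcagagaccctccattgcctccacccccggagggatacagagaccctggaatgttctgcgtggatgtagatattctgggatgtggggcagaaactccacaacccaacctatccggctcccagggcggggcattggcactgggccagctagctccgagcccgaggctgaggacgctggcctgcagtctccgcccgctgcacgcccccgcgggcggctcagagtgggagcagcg
Il33 first start: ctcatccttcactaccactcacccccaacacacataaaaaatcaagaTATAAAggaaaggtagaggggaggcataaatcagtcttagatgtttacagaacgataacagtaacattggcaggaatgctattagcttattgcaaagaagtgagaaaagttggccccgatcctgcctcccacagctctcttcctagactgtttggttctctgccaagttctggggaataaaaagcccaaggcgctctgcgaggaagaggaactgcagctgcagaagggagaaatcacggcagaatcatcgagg
Il33 second start: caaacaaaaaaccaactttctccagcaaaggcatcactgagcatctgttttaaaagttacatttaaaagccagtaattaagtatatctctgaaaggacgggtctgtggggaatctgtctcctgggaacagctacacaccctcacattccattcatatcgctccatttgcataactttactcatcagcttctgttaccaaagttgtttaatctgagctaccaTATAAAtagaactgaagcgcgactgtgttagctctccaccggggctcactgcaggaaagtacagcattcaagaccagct
The first *Il1r1* window held 5 CpG and the second 14, against a median of 7 over 32851 promoters. TATAAA was in both *Il33* windows and in neither *Il1r1* window, and 13.6% of all promoters hold it. These matches describe letters only.

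The receptors differed most from each other in where they were counted. The mean over pools with at least 20 nuclei of a class put *Il1r1* highest in endothelial-like nuclei, at 265 ± 237 CPM (SD, n = 7 pools), then in DG-like nuclei, at 50.2 ± 30.5 CPM (n = 8), with 2.06 to 15.4 CPM in the 10 other classes compared. The rarer named classes were not compared. Summed over pools, ependymal-like nuclei had 39.6 CPM (15 UMIs, counting interval 22.2 to 65.3) and pericyte-like nuclei 34.3 CPM (7 UMIs, 13.8 to 70.7). Immature neuron-like, vascular leptomeningeal-like and medium spiny-like nuclei had 11.1, 6.24 and 3.27 CPM. Endothelial-like nuclei exceeded DG-like nuclei in 7 of 7 pools, and the difference had p = 0.0156 in an exact two-sided paired permutation test, or 0.103 adjusted over the 66 neighbouring pairs of classes tested. DG-like nuclei exceeded *Slc17a6* excitatory-like nuclei in 6 of 8 pools (exact permutation p = 0.0469, adjusted 0.193), and the other 2 pools were those of nIL-1R1-/- mice. No neighbouring pair of classes passed the adjusted test for any of the 6 genes ranked, where the smallest adjusted p was 0.0859 (exact permutation test, 8 pools). Of the 2820 *Il1r1* UMIs, 41.2% were in DG-like and 10.6% in endothelial-like nuclei, although there were 10721 of the former and 358 of the latter. Oligodendrocyte-like nuclei, taken as background, gave 3.23 CPM, and OPC-like nuclei held 2 UMIs in all.

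**Figure D1:**
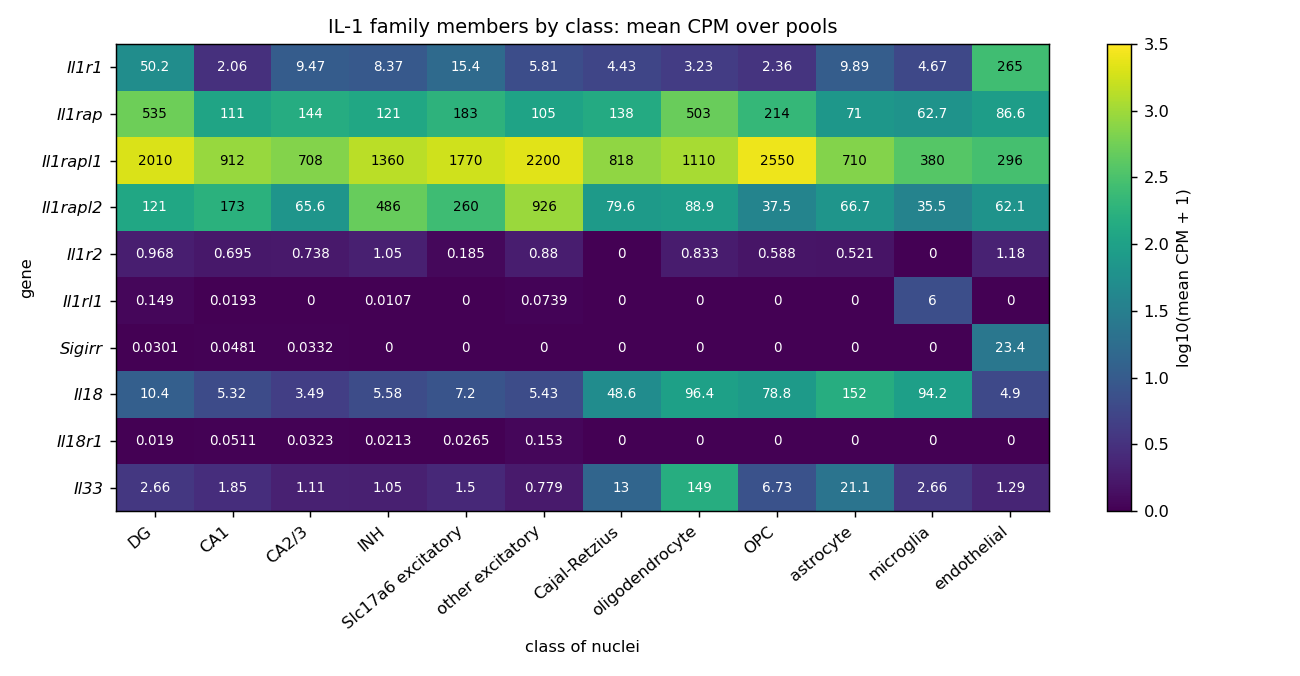
Mean CPM over pools of each gene (rows) in 12 classes of nuclei (columns), for pools with at least 20 nuclei of the class; colour is log10 of the mean CPM plus 1, and the number in each cell is the mean CPM. *Il1r1* and *Sigirr* stand highest in endothelial-like, *Il33* in oligodendrocyte-like and *Il18* in astrocyte-like nuclei, while *Il1rapl1* is at 296 CPM or more in every class.

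The inhibitory and decoy receptors were rare. *Sigirr*, the inhibitor of the family, had 27 UMIs in all, and 21 of these were in 20 of the 358 endothelial-like nuclei, a share of 77.8%. By pair of pools (control, then RSD) these were 2 and 6 UMIs with vehicle, 0 and 0 with PLX5622, 2 and 3 in IL-1R1+/+ mice and 3 and 5 in nIL-1R1-/- mice. Both PLX5622 pools were at 0, and 3 counts, the limit that a count of 0 allows, would be 209 and 33.0 CPM there. *Il1r2*, the decoy, had 231 UMIs spread thinly, at 0.792 to 1.24 CPM in all pools and at no more than 1.18 CPM in any of the 12 classes compared. Microglia-like nuclei held 0 UMIs of it, which allows a level of up to 5.72 CPM.

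The receptors for IL-33 and IL-18 were rarely counted at this depth. *Il1rl1*, which encodes the IL-33 receptor ST2, had 18 UMIs, 4 of them in 4 microglia-like nuclei (0.969% of these, against 0.00933% of DG-like nuclei with median depths of 893 and 1573 UMIs; the 6 pools with microglia-like nuclei held 0, 1, 2, 0, 0 and 1). *Il18r1* had 46 UMIs, and 25 of them came from 1 unnamed neuronal cluster led by *Rai14*, *Col5a1* and *Cdh18*. In that cluster 17 UMIs lay in 8 of 498 nuclei of Stress-nIL-1R1-/- and 8 UMIs in 5 of 391 nuclei of Stress-IL-1R1+/+, and the other 6 pools had 0 UMIs in 105 to 295 nuclei each. Summed over all nuclei, RSD against control gave a log2 fold change of 1.79 ± 0.62 (SE) for *Il18r1*, with an adjusted p of 0.219 (edgeR). The Stress-Vehicle and Stress-PLX5622 pools did not share the pattern.

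*Il1rap*, the co-receptor without which IL-1R1 cannot signal, was high in classes with very different levels of *Il1r1*. It reached 535 CPM in DG-like and 503 CPM in oligodendrocyte-like nuclei, 214 CPM in OPC-like nuclei and at most 183 CPM in the other classes. DG-like and oligodendrocyte-like nuclei did not differ beyond the spread over pools (higher in DG in 5 of 8 pools, exact permutation p = 0.617), whereas oligodendrocyte-like exceeded OPC-like nuclei in 8 of 8 pools (exact permutation p = 0.00781, the smallest that 8 pools allow, adjusted 0.0859). Endothelial-like nuclei had 86.6 CPM of *Il1rap*, so the class with the most *Il1r1* was among those with the least co-receptor. Inhibitory nuclei were uneven, with 297 CPM in a cluster led by *Egfr* against 109 CPM in a cluster led by *Sox6* and *Nxph1* and 115 CPM in a cluster led by *Adarb2*.

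In DG-like nuclei 661 of the 897 nuclei with an *Il1r1* UMI also had an *Il1rap* UMI. Nuclei with *Il1r1* were read deeper, and compared with other DG-like nuclei of the same depth the share with *Il1rap* was higher in 5 of 8 pools. In endothelial-like nuclei 19 of 55 nuclei with *Il1r1* also had *Il1rap*, a share above that of other nuclei of the same depth in 6 of 7 pools. These counts are a description, since nuclei of a pool are not replicates.

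*Il1rapl1* and *Il1rapl2*, the adhesion proteins, had separate patterns. *Il1rapl1* was present in every class, highest in OPC-like (2550 CPM), other excitatory-like (2200 CPM) and DG-like nuclei (2010 CPM) and lowest in microglia-like (380 CPM) and endothelial-like nuclei (296 CPM). *Il1rapl2* was concentrated in other excitatory-like nuclei (926 CPM) and INH-like nuclei (486 CPM), with 37.5 CPM in OPC-like nuclei, where its relative was highest. Within INH-like nuclei the cluster led by *Sox6* and *Nxph1* held 743 CPM (589 to 978 over pools), and those led by *Adarb2* and *Egfr* held 141 CPM (68.3 to 246) and 163 CPM (108 to 305). The pool ranges of the first cluster and the others did not overlap. Free RNA from neurons can reach other classes, and its part in the low values of microglia-like and endothelial-like nuclei was not tested.

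Per UMI of a class, the ligands were highest in glia. *Il33* stood at 149 CPM in oligodendrocyte-like nuclei, 21.1 CPM in astrocyte-like nuclei and 0.779 to 2.66 CPM in the classes of hippocampal neurons other than Cajal-Retzius-like nuclei. The latter had 11.2 CPM summed over pools, from 6 UMIs (counting interval 4.11 to 24.4). Of its 1125 UMIs, 303 (26.9%) lay in 1 unnamed cluster, at 23.8 CPM. That cluster was grouped with neurons and led by *Prr5l*, *Mag* and *Gm16168*. The oligodendrocyte-like value, control then RSD, was 175 and 119 CPM with vehicle, 131 and 211 CPM with PLX5622, 143 and 95.5 CPM in IL-1R1+/+ mice and 132 and 186 CPM in nIL-1R1-/- mice. It exceeded the astrocyte-like value in 8 of 8 pools (exact permutation p = 0.00781, adjusted 0.0859), and control and RSD pools overlapped fully.

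*Il18*, an inflammasome-processed cytokine, was shared by glia: 152 CPM in astrocyte-like, 96.4 CPM in oligodendrocyte-like, 94.2 CPM in microglia-like and 78.8 CPM in OPC-like nuclei, against 3.49 to 10.4 CPM in neurons of the hippocampal fields and INH-like nuclei. Vascular leptomeningeal-like nuclei, too rare to be compared, had 99.8 CPM summed over pools, from 16 UMIs (counting interval 57 to 162). The 4 glial classes were not separated by the test of neighbours (adjusted exact permutation p of 0.147 to 0.905). Microglia-like nuclei held 46 of the 2083 UMIs, and the largest DG-like cluster held 264 (12.7%), at 11.4 CPM. Over all nuclei *Il18* stood at 10.2 and 15 CPM in the PLX5622 pools against 7.76 to 12.1 CPM in the other 6. In sums over whole pools such as these, fewer cells of a type and less RNA per cell cannot be told apart.

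**Figure D2:**
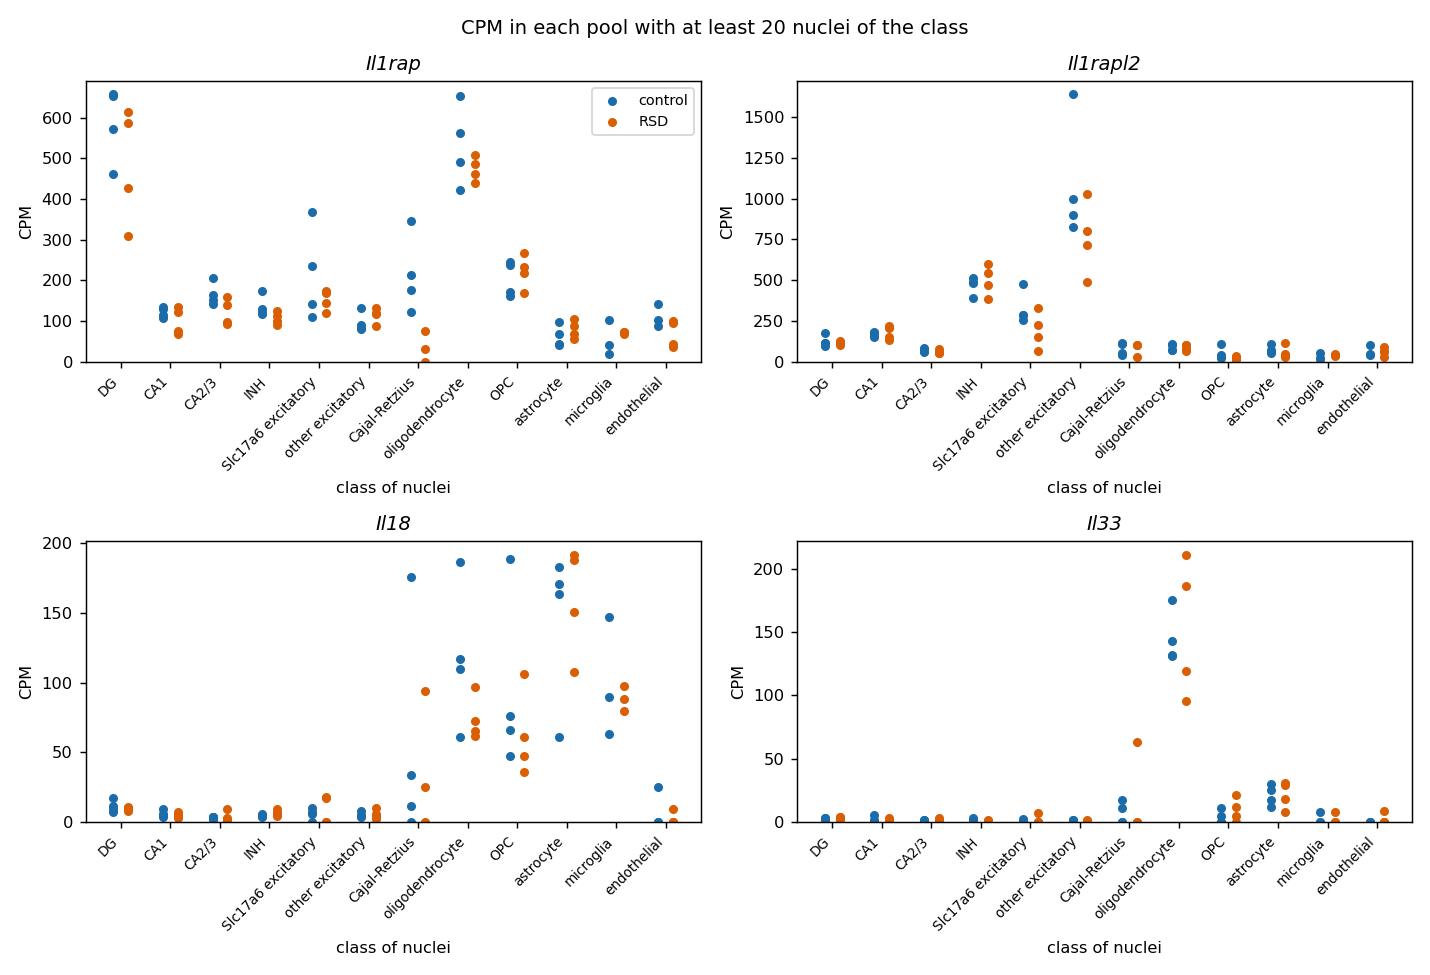
CPM (vertical axis) of *Il1rap*, *Il1rapl2*, *Il18* and *Il33* in 12 classes of nuclei; each point is 1 pool with at least 20 nuclei of the class, blue for control and orange for RSD. *Il33* sits at 95.5 to 211 CPM in oligodendrocyte-like nuclei and at 7.84 to 30.4 CPM in astrocyte-like nuclei, and control and RSD points overlap in both.

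The IL-1 ligands themselves were at the edge of detection. Over 217534776 UMIs, *Il1b* had 10, *Il1a* 50 and the antagonist *Il1rn* 4, and *Il1b* had 0 UMIs in the 413 microglia-like nuclei, which allows up to 0.726% of them with a UMI and, at their median depth of 893 UMIs, does not limit how many express it. Of the *Il1a* UMIs 21 were in microglia-like nuclei, as were 43 of the 210 UMIs of *Il1rl2*, the IL-36 receptor. *Il18bp*, which neutralises IL-18, was the most counted of this list of 11 related genes, with 1403 UMIs. *Il1f10* was at 0.

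For 6 genes the genes with the most similar pattern of mean log2 CPM over the 12 classes were listed, among 14256 candidates. They were *Iigp1* (Pearson r = 0.914), *Ocln* (0.879) and *Fut8* (0.867) for *Il1r1*. They were *Ermp1* (0.879), *Prtg* and *Gm11728* (both 0.853) for *Il1rap*, *Sox11* (0.927), *Myo5a* (0.912) and *Dock3* (0.911) for *Il1rapl1*, and *Rims4* (0.926), *Sema3a* (0.901) and *Hcrtr2* (0.9) for *Il1rapl2*. *Dpf2* (0.956), *Gm29394* (0.946) and *Adsl* (0.919) were most like *Il18*, and *Olfml1* (0.957) and *Fan1* (0.946) were among those most like *Il33*. The points share their libraries and unequal depths, so these values are descriptive.

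The genotype comparison asked where the deletion of *Il1r1* is seen. In DG-like nuclei *Il1r1* stood, in control and then RSD pools, at 61 and 29.2 CPM in IL-1R1+/+ mice, at 11.5 and 8.9 CPM in nIL-1R1-/- mice, at 83.2 and 65.4 CPM with vehicle and at 87.9 and 54.1 CPM with PLX5622. The 2 nIL-1R1-/- pools lay below every other pool. The log2 fold change of nIL-1R1-/- against IL-1R1+/+ was -2.14 ± 0.22 (SE), with an adjusted p of 9e-05 (edgeR quasi-likelihood test, 8 pools), and *Il1r1* was the only gene of 11918 that passed in DG-like nuclei (0.00839%). The call was lost with no replicate block (log2 fold change -2.10, adjusted p 0.227) and on nuclei thinned to 300 UMIs (-3.98, adjusted p 0.0523), with the direction kept (edgeR). The main test sets the difference between 2 pairs of pools against the spread of the RSD effect over pairs. Its p is therefore no measure of the spread between pairs. The counts cannot show which exons the remaining UMIs came from.

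Outside granule neurons the difference was smaller and did not pass. In CA2/3-like nuclei *Il1r1* went from 11.2 to 5.11 CPM in the control pools and from 5.58 to 2.94 CPM in the RSD pools, a log2 fold change of -0.99 ± 0.34 with an adjusted p of 1 (edgeR). In endothelial-like nuclei it was 92.7 and 26.3 CPM in the control pools and 367 and 262 CPM in the RSD pools, with a log2 fold change of -0.91 ± 0.4 and an adjusted p of 1 (edgeR, 6 pools). Over the 6 genes and the classes that could be tested, 1 of 45 tests passed, where 0.0797% of all gene and class tests passed in this comparison. At an unadjusted p of 0.05, 6 of the 45 (13.3%) were below the threshold, against 2.68% of all tests. Beside *Il1r1* these were *Il1rap* in INH-like nuclei (0.43 ± 0.15), *Il1rapl2* in *Slc17a6* excitatory-like nuclei (-1.16 ± 0.38) and *Il18* in oligodendrocyte-like nuclei (-0.79 ± 0.32), each a log2 fold change whose adjusted p was 0.194 or more (edgeR). The *Slc17a6* class held 1571 nuclei in Con-IL-1R1+/+ and 23 to 318 in the other 7 pools, and the part of this in its value was not tested. *Il1rapl1* was negative in 6 of 11 classes and *Il33* in 0 of 2, with 0.41 ± 0.29 in oligodendrocyte-like nuclei (adjusted p 1, edgeR). *Il1r2*, *Il1rl1*, *Sigirr* and *Il18r1* had too few counts to test by class in this and the other comparisons.

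The RSD comparison drew on 4 pairs of pools that share diet or genotype. In endothelial-like nuclei *Il1r1* had 6 UMIs (123 CPM) in Control-Vehicle and 83 (733 CPM) in Stress-Vehicle, 3 (209 CPM) and 23 (253 CPM) in the PLX5622 pools, 22 (92.7 CPM) and 122 (367 CPM) in the IL-1R1+/+ pools and 5 (26.3 CPM) and 36 (262 CPM) in the nIL-1R1-/- pools. The RSD pools lay above the control pools in 4 of 4 pairs, without overlap, a pattern that 3.67% of the 3845 genes tested in this class had. The control pool of the PLX5622 pair held 17 endothelial-like nuclei, under the minimum of 20, and its 3 UMIs give a log2 ratio of 0.27 with a counting interval of -1.45 to 2.65.

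In the 3 pairs with enough nuclei the log2 fold change was 2.47 ± 0.34 (SE). It had the smallest p of 3845 genes (1.88e-05) and an adjusted p of 0.0721 (edgeR, 6 pools), so it did not pass, and 0 genes passed in this class in edgeR, 2 in DESeq2, while 314 had an unadjusted p under 0.05 in edgeR. With the PLX5622 pair included, a choice made after the values were seen, it was 2.28 ± 0.36 with an adjusted p of 0.000696 (edgeR, 8 pools), and 0.701% of 3281 genes passed. DESeq2 gave 2.53 and an adjusted p of 0.00478 on the 3 pairs. Leaving out a pool of the IL-1R1+/+ or nIL-1R1-/- pairs gave 2.19 to 2.97 with adjusted p-values of 1.17e-06 to 5.5e-05 (edgeR). Without Control-Vehicle or Stress-Vehicle the adjusted p was 0.208 or 0.173 (edgeR). In each of these fits the other pool of the pair gives no estimate of RSD, so the effect rests on 2 pairs. The smaller p-values are therefore no measure of how well the result holds over pairs.

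**Figure D3:**
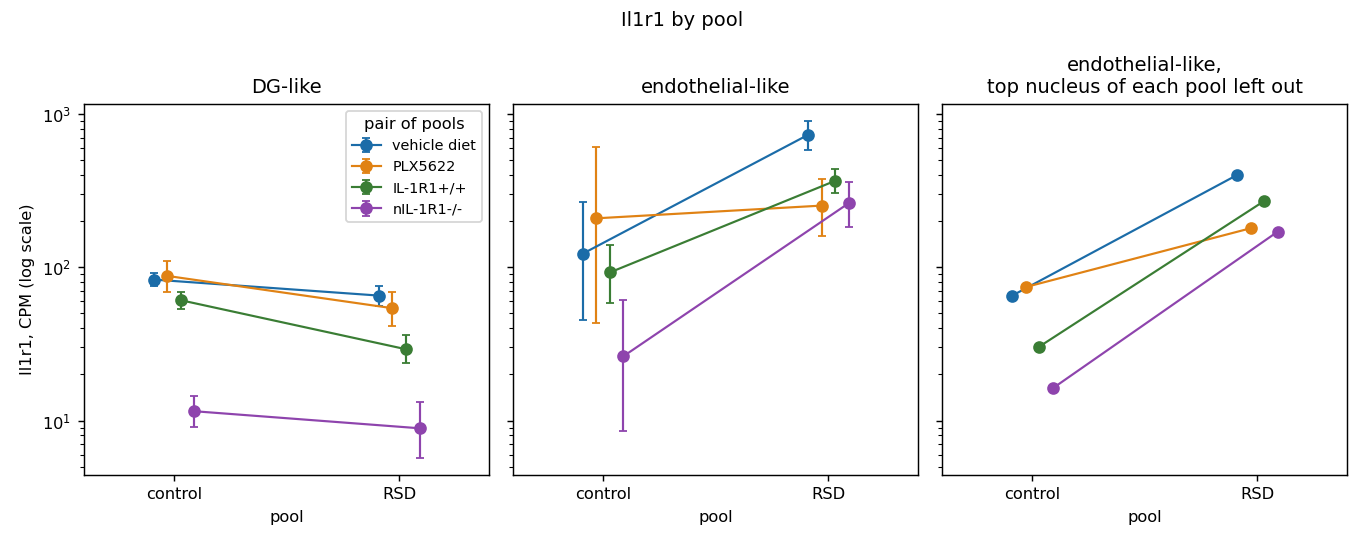
*Il1r1* in CPM (log axis) in control and RSD pools; lines join the pools of a pair, and bars in the first and second panel are exact 95% Poisson intervals of the counts. Each pair goes down from control to RSD in DG-like nuclei and up in endothelial-like nuclei, with the widest intervals in Control-PLX5622 (17 nuclei, 3 UMIs), and the same direction holds once the top nucleus of each pool is left out.

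A few nuclei carried most of these UMIs. The share of endothelial-like nuclei with an *Il1r1* UMI was 11.7% (17 of 145) in control pools and 18.8% (40 of 213) in RSD pools, with pool values of 10.9 to 12.9% and 13.1 to 27.7%, while 0.489% of oligodendrocyte-like nuclei had one (median depths of 1711 and 913 UMIs). At least 5 *Il1r1* UMIs were found in 1 of 145 control nuclei and in 12 of 213 RSD nuclei, and the nucleus with the most had 42 UMIs in Stress-Vehicle and 36 in Stress-IL-1R1+/+. They were also uneven over the 4 sublibraries into which every pool was divided, with 103 of the 122 UMIs of Stress-IL-1R1+/+ in 1 of them. With the top nucleus of every pool left out, an alternative added after the values were seen, *Il1r1* stood at 16.2 to 74.3 CPM in control pools and at 171 to 401 CPM in RSD pools, still without overlap. Over 4 pairs an exact paired permutation test cannot go below p = 0.125, the value obtained with and without these nuclei.

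Other values moved with RSD in this class. The summed level of 9 endothelial markers was 8430 to 12800 CPM in control pools and 14200 to 15900 CPM in RSD pools. The markers of microglia were at 118 to 209 and 162 to 198 CPM, those of DG neurons at 61.5 to 242 and 87.5 to 154 CPM, and those of neurons in general at 1020 to 1900 and 548 to 1290 CPM. Median depth was 434 to 2674 UMIs in control and 1109 to 3779 UMIs in RSD pools. Their part in the result was not tested. Thinned to 300 UMIs per nucleus, 0 to 3 nuclei per pool kept an *Il1r1* UMI, which is too few to compare. The thinned values, control then RSD, were 108 and 75.8 CPM with vehicle and 222 and 230 CPM with PLX5622. They were 52.1 and 287 CPM in IL-1R1+/+ mice and 0 and 142 CPM in nIL-1R1-/- mice, from 0 to 5 UMIs a pool.

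In DG-like nuclei *Il1r1* was lower after RSD in 4 of 4 pairs, as the pool values above show, with a log2 fold change of -0.67 ± 0.15 and an adjusted p of 0.0918 (edgeR, 8 pools). Control and RSD pools overlapped, with and without the nIL-1R1-/- pools. Of all genes tested in this class, 9.13% were lower in every pair. The adjusted p fell to 0.0291 and 0.0183 without Con-nIL-1R1-/- or Stress-nIL-1R1-/- (edgeR). Either fit takes the whole nIL-1R1-/- pair out of the RSD effect.

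The fitted RSD effect on *Il1r1* went in opposite directions in endothelial-like and DG-like nuclei. In 1 edgeR model of both classes with the pool as a term, the endothelial-like effect exceeded the DG-like effect by 3.18 ± 0.4 on the log2 scale, with an adjusted p of 1.11e-11 (6 pools), and 0.0328% of 12202 genes passed. Leaving out each pool in turn gave 2.94 to 3.42, and including the PLX5622 pair gave 2.9. For endothelial-like nuclei fitted alone the adjusted p was 0.0721 (edgeR). The p of the difference should not be read as the spread between so few pairs. The classes were chosen for this comparison after their values were seen, and the model of both classes assumes the same spread in both. Of the other family members in that model, *Il1rap* (-0.26 ± 0.48), *Il1rapl1* (-0.47 ± 0.47) and *Il1rapl2* (-0.44 ± 0.47) gave adjusted p-values of 0.989 or more (edgeR), as did *Il18* (-0.8 ± 1.19) and *Sigirr* (1.88 ± 2.02).

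The shares of the *Il1r1* UMIs held by these classes differed between control and RSD pools. Among UMIs in named classes, endothelial-like nuclei held, control then RSD, 0.995% and 25.9% with vehicle, 2.65% and 22.8% with PLX5622, 4.65% and 41.5% in IL-1R1+/+ mice and 2.12% and 35.3% in nIL-1R1-/- mice. The RSD share was higher in 4 of 4 pairs, by 28.8 ± 7.62 percentage points (SD), with an exact permutation p of 0.125, the smallest that 4 pairs allow. In the same order, DG-like nuclei held 68 and 52.6%, 65.5 and 62.4%, 53.5 and 31.3% and 32.2 and 23.5%. In the RSD pools of both genotypes more of these UMIs lay in endothelial-like than in DG-like nuclei. A share depends on how many nuclei of a class were sampled and how deeply. In the same order, endothelial-like nuclei numbered 31 and 47, 17 and 61, 64 and 58 and 33 and 47. Their UMIs of all genes were 48788 and 113204, 14352 and 90983, 237417 and 332426 and 190351 and 137187. The part of this sampling in the shares was not tested.

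**Figure D4:**
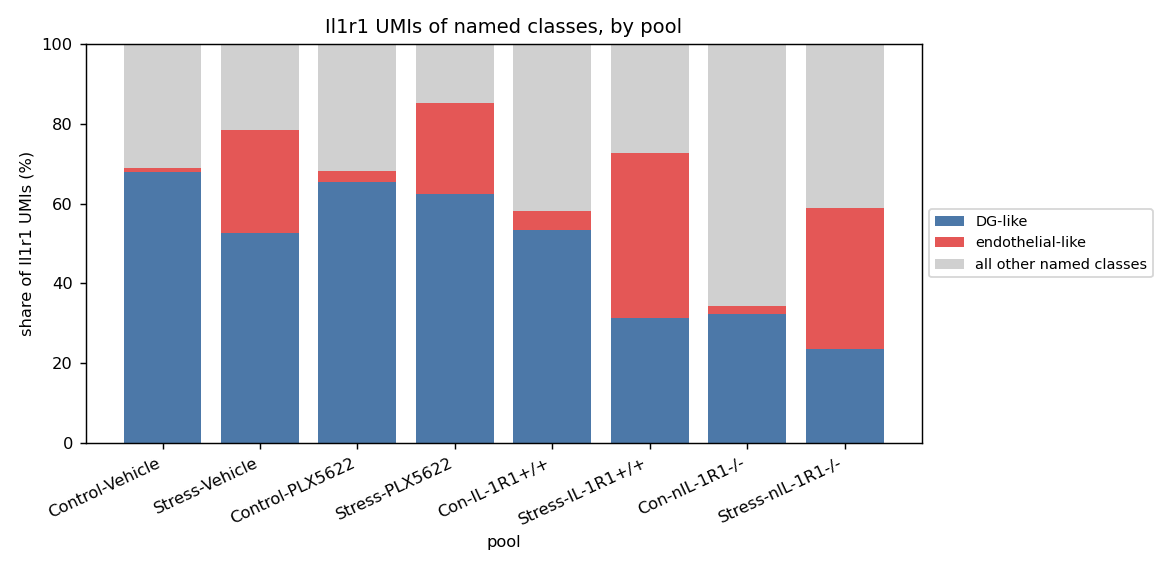
Share of the *Il1r1* UMIs of named classes (percent) in DG-like nuclei (blue), endothelial-like nuclei (red) and all other named classes (grey), 1 bar per pool. The red part is 0.995 to 4.65% in the 4 control pools and 22.8 to 41.5% in the 4 RSD pools.

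The endothelial-like nuclei with *Il1r1* were also described by genes that mark segments of the vessel wall, a list chosen after *Il1r1* had been seen. The 57 nuclei with an *Il1r1* UMI had a median of 3325 UMIs and the 301 without had 1506. *Slc38a5*, a transporter of venous and capillary endothelium, stood at 56.6 CPM in the former and 13 CPM in the latter and was higher in 8 of 8 pools. *Vwf*, which encodes von Willebrand factor, stood at 465 and 236 CPM and was higher in 7 of 8 pools. The 7 venous genes summed to 613 and 301 CPM (log2 ratio 1.02, counting interval 0.75 to 1.3), the 6 arterial genes to 141 and 164 CPM (-0.22, -0.73 to 0.28) and the 4 capillary genes to 418 and 535 CPM (-0.36, -0.65 to -0.07). *Vwf* alone gave 148 of the 195 venous UMIs in nuclei with *Il1r1* and 200 of the 255 in those without. Of the other venous genes, *Nr2f2* was higher in 4 pools and lower in 3, and *Icam1* higher in 2 and lower in 2. *Vcam1* (4 and 0 UMIs), *Ackr1* (1 and 0) and *Lcn2* (0 and 2) were barely counted. The nuclei with *Il1r1* were picked by a gene in the same cells, so no test is given.

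Other members moved less after RSD. Over the 6 genes that passed the filter on low counts, none of 46 gene and class tests passed an adjusted p of 0.05 in edgeR, where 1.2% of all gene and class tests passed; DESeq2 called 2 of the 36 for which it gave an adjusted p, and 10 of the 46 edgeR tests (21.7%) had an unadjusted p under 0.05 against 11.1% of all tests. The median log2 fold change of the 46 was -0.21, against 0 over all tests, and 9 of the 10 were lower after RSD. The other 4 genes, *Il1r2*, *Il1rl1*, *Sigirr* and *Il18r1*, passed the filter in no named class.

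*Il1rap* accounted for 4 of the 10. In DG-like nuclei it went from 573 to 428 CPM in the vehicle pair, from 461 to 309 CPM in the PLX5622 pair, from 654 to 586 CPM in the IL-1R1+/+ pair and from 657 to 614 CPM in the nIL-1R1-/- pair. It was lower in 4 of 4 pairs in the nuclei of 4 classes, INH-like, DG-like, CA2/3-like and CA1-like, a pattern that 8.5, 9.13, 11.5 and 9.2% of all genes tested had. The log2 fold changes were -0.35 ± 0.11, -0.33 ± 0.12, -0.45 ± 0.12 and -0.26 ± 0.13, with adjusted p-values of 0.328, 0.275, 0.0787 and 0.383 (edgeR), where 0.0385, 0.042, 0.765 and 1.35% of genes in these classes passed. In CA2/3-like nuclei the CPM was 143 and 97 in the vehicle pair, 152 and 93.9 in the PLX5622 pair, 165 and 140 in the IL-1R1+/+ pair and 206 and 158 in the nIL-1R1-/- pair, and here DESeq2 gave an adjusted p of 0.048. In CA1-like nuclei it was 114 and 75.4 in the vehicle pair and 108 and 67.5 in the PLX5622 pair. The CA1-like values hardly differed in the IL-1R1+/+ pair (130 and 123) and the nIL-1R1-/- pair (135 and 134). Oligodendrocyte-like nuclei, at 423 to 653 CPM in control and 439 to 508 CPM in RSD pools, were lower in 3 of 4 pairs. Other excitatory-like nuclei were higher in 3 of 4 pairs, with a log2 fold change of 0.29 ± 0.16 (adjusted p 0.368, edgeR). There *Il1rap* went from 83.7 to 133 CPM with vehicle, 80.3 to 87.3 CPM with PLX5622 and 90.4 to 119 CPM in IL-1R1+/+ mice. It went from 131 to 118 CPM in nIL-1R1-/- mice. In Cajal-Retzius-like nuclei, of which each pool held 17 to 42, it stood at 122 to 347 CPM in control and at 0 to 112 CPM in RSD pools. These values came from 0 to 61 UMIs a pool, which was too few to test. The share of all genes of this class with such a pattern is not given here.

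The adhesion relatives were lower in some neurons without passing. *Il1rapl1* had log2 fold changes of -0.28 ± 0.12 in DG-like and -0.25 ± 0.12 in CA2/3-like nuclei (adjusted p of 0.394 and 0.317, edgeR). *Il1rapl2* in other excitatory-like nuclei went from 901 to 488 CPM in the vehicle pair, from 1640 to 718 CPM in the IL-1R1+/+ pair and from 1000 to 799 CPM in the nIL-1R1-/- pair, but from 827 to 1030 CPM in the PLX5622 pair. Its log2 fold change was -0.54 ± 0.19 with an adjusted p of 0.106 (edgeR), in a class where 6.46% of genes passed. Without Control-PLX5622 or Stress-PLX5622 it was -0.76 with an adjusted p of 0.000145 or 0.000215 (edgeR). Either fit takes the PLX5622 pair, the only 1 with a rise, out of the RSD effect. With 15 principal components in the clustering it was -0.03. The make-up of the class moved with RSD: it joins a cluster led by *Igfn1*, *Pdzrn3* and *Rorb*, with 564 CPM of *Il1rapl2*, and a cluster led by *Kcnh8*, *Sntb1* and *Vwc2l*, with 1320 CPM. The first held 96 nuclei in the control and 676 in the RSD pool with vehicle, 33 and 488 in IL-1R1+/+ mice and 55 and 463 in nIL-1R1-/- mice, but 53 and 49 with PLX5622, while the second held 106 to 177 in every pool. The part of this in the result was not tested. In *Slc17a6* excitatory-like nuclei its log2 fold change was -0.79 ± 0.28 (adjusted p 0.996, edgeR). For the ligand *Il33* in oligodendrocyte-like nuclei the log2 fold change was -0.09 ± 0.23 (adjusted p 0.991, edgeR), with higher values in 2 of 4 pairs.

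**Figure D5:**
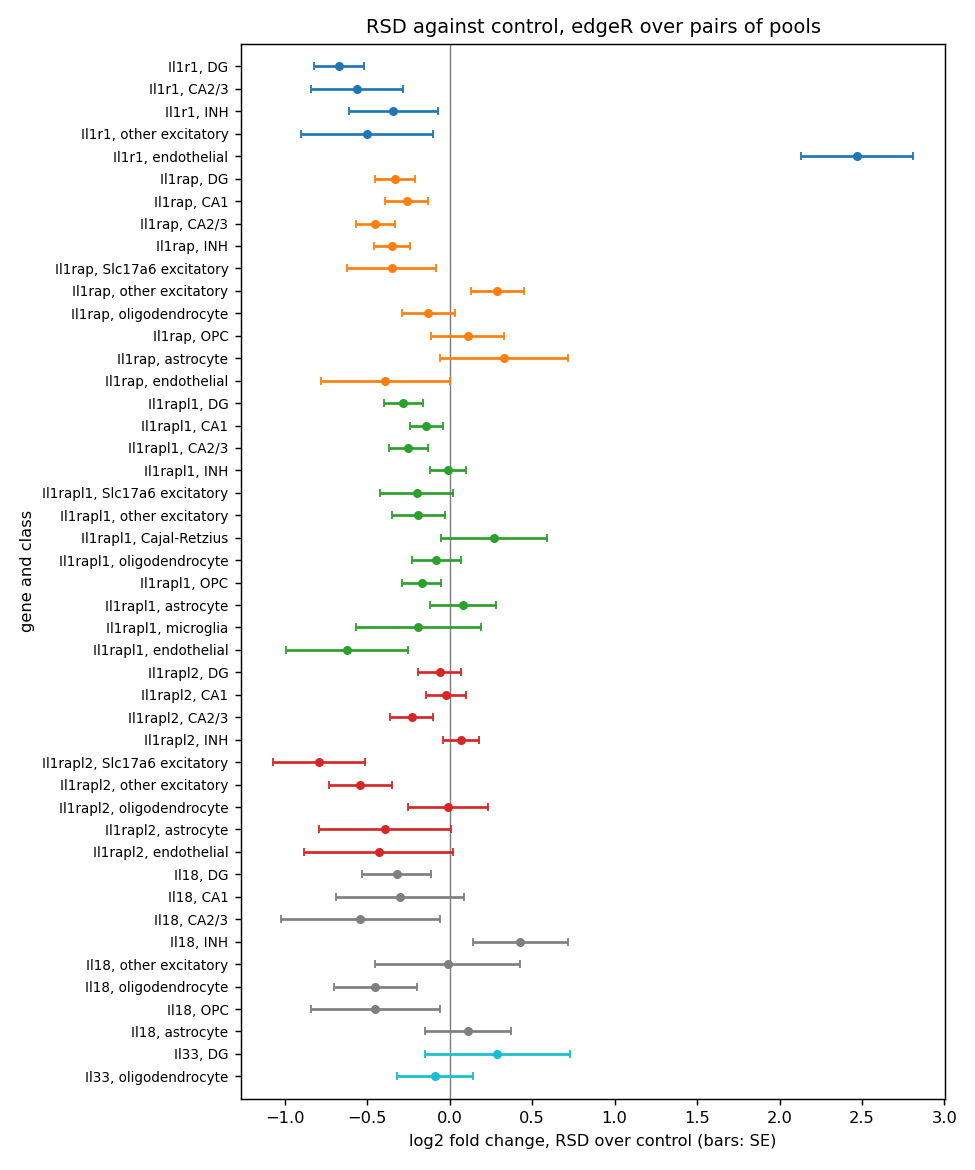
Fitted log2 fold change of RSD over control (horizontal axis, bars are SE) for each gene and class that passed the filter on low counts, coloured by gene. *Il1r1* in endothelial-like nuclei stands at 2.47, apart from all other values, and most values for *Il1rap* and *Il1rapl1* in hippocampal neurons lie below 0.

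The PLX5622 comparison asked whether loss of microglia went with a change in the family. None of 41 gene and class tests passed in edgeR (0.0155% of all tests did) or in DESeq2 (41 tests), and 5 of the 41 (12.2%) had an unadjusted p under 0.05, all higher with PLX5622, against 5.81% of all tests. Of these, 4 were *Il1rapl2*, in CA2/3-like (0.55 ± 0.22), DG-like (0.51 ± 0.19), INH-like (0.38 ± 0.15) and astrocyte-like nuclei (1.09 ± 0.51), all log2 fold changes with adjusted p-values of 0.459 or more (edgeR). In DG-like nuclei *Il1rapl2* stood at 175 and 130 CPM in the PLX5622 pools and at 95 to 122 CPM in the other 6 pools. Its log2 fold change there was 0.17 to 0.81 when a pool was left out. The remaining test of the 5 was *Il18* in OPC-like nuclei, at 189 and 106 CPM in the PLX5622 pools from 7 and 5 UMIs. It stood at 36 to 76.3 CPM in the other 6 pools. The share of all genes with both PLX5622 pools above the other 6 is not given here for either class. *Il1r1* (-0.03 ± 0.2 in DG-like nuclei) was negative in 3 of 4 classes, *Il1rap* in 5 of 9, *Il1rapl1* in 4 of 10 and *Il33* in 0 of 2. Endothelial-like nuclei were not among these classes, since Control-PLX5622 held too few of them. The fit that included that pair, chosen after the values were seen, gave *Il1r1* a log2 fold change of -1.18 ± 0.54 there (unadjusted p 0.0355, adjusted 0.998, edgeR). The PLX5622 pools were the shallowest, at medians of 598 and 628 UMIs per nucleus, and had the largest share of unnamed nuclei. The part of depth and of naming in these values was not tested.

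Genes around the family gave few calls. Of 20 signalling proteins next to the receptors, from *Myd88* to *Nfkbia*, 16 could be tested (15 for PLX5622) and none passed in edgeR in any of the 3 comparisons. DESeq2 called none either, over 75 tests with an adjusted p for RSD, 120 for nIL-1R1-/- and 105 for PLX5622. In edgeR 5 of 120 tests with RSD (4.17%) had an unadjusted p under 0.05. With nIL-1R1-/- 3 of 120 (2.5%) did, and with PLX5622 3 of 105 (2.86%). Over all gene and class tests the shares were 11.1, 2.68 and 5.81% in the same order. Of 8 inflammasome genes 3 could be tested, and none passed in edgeR or in DESeq2 (9, 18 and 14 tests). In edgeR 2 of 18 (11.1%), 1 of 18 (5.56%) and 0 of 14 tests were under an unadjusted 0.05 in the same order. Of 6 synaptic partners of the adhesion proteins all were tested. With RSD 3 of 61 tests passed in edgeR, where 1.2% of all gene and class tests passed. An unadjusted p under 0.05 was found in 15 of the 61 (24.6%). In DESeq2 3 of 54 passed, all of them for *Ptprs*. None passed with nIL-1R1-/- (0 of 57 at an unadjusted 0.05) or PLX5622 (4 of 54, 7.41%). *Ptprs*, a phosphatase that binds such proteins across the synapse, was higher in CA1-like (0.39 ± 0.11, adjusted p 0.0426) and other excitatory-like nuclei (0.55 ± 0.15, adjusted p 0.0308), the class whose make-up moved with RSD, and *Ptprd* was lower in Cajal-Retzius-like nuclei (-0.92 ± 0.27, adjusted p 0.0183), a class in which 5.88% of genes passed. The median log2 fold change of the 61 tests was 0.16, against 0 over all tests. Of the 11 related ligands, receptors and antagonists 1 had enough counts, and none of its 5 edgeR tests in each comparison passed, nor had an unadjusted p under 0.05. DESeq2 called none of 1, 5 and 5 tests.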

How the data were processed

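Single-nucleus RNA sequencing was carried out by the authors on hippocampi pooled from 3 mice per condition, with split-pool barcoding (Parse Biosciences) into 4 sublibraries that each hold all 8 pools. The authors deposited UMI counts per gene and nucleus, not normalized, as 1 matrix for each pool with its table of nuclei. The submitters' processing notes name mm39 and Seurat 4.1.1; the version of the alignment pipeline and whether counting used the strand are not given in the sources used here. No column of another sample was found (0). The condition of each matrix was taken from the numbered list of pools in the labels.

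Nuclei with over 20% mitochondrial counts were left out, as in the study. Nuclei were clustered (scanpy 1.11.5, Leiden with leidenalg 0.10.2, 2000 variable genes, 30 principal components, 15 neighbours, resolution 1) with the 10 genes left out, and clusters were named from marker lists. A name needed at least 3 detected markers and a best score at least 1.25 times the second, and this rule was revised 3 times after the cluster tables and before any gene was compared. Doublets were scored with Scrublet, whose automatic threshold marked 0 to 1 nuclei in 7 pools and 1484 in Con-nIL-1R1-/-, so leaving out the highest scores (about 6%) was an alternative only. Depth was 7534594 to 58081835 UMIs per pool.

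UMIs were summed per class and pool (at least 20 nuclei, at least 3 pairs of pools) and tested with edgeR 4.0.16 (quasi-likelihood, TMM, filterByExpr, pair and stress as terms), with Benjamini-Hochberg adjustment over all genes of a class and a threshold of 0.05. DESeq2 1.42.0 was an alternative, as were RLE factors, no filter on low counts, no replicate block, thinning to 300 UMIs per nucleus (1955 shallower nuclei left out), doublets left out, 15 principal components, a 5% mitochondrial filter and leaving out each pool. The main fits treat pools as replicates, with 2 or 3 residual degrees of freedom. Their residual is the spread of the RSD effect over pairs, also for the comparisons of genotype and diet. Fits with a pool left out have fewer, and the other pool of its pair then gives no estimate of RSD. Neighbouring classes were compared with exact two-sided paired permutation tests. On simulated counts with 200 changed genes, a log2 change of 1 was recovered for 74% of genes in DG-like and 7% in endothelial-like nuclei, and a change of 2 for 95.5% and 84.5%. Software was Python 3.11.15, numpy 2.4.6, pandas 2.3.3, scipy 1.17.1 and R 4.3.3.

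A pair joins the control and the RSD pool with the same diet or genotype, as the design gives it; 22 of 45 correlations of deviations within pairs were over 0.1 (range -0.0781 to 0.319). Intervals are 95%, exact, and cover counting error only, and the limit of a count of 0 is 3 counts. All 10 genes are named in every comparison, and of the other listed genes those that passed, at most 5 per comparison. For genes with at least 200 UMIs in named classes, the 3 genes with the highest correlation over classes are also named, except 1 that is not reported here. The genes, lists and tests were chosen with earlier results of these data known, and the vessel genes, the comparison of RSD effects between classes and the tests of shares after values were seen.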

Additional observations from a re-analysis of the deposited data

Results flagged for a closer look

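*Il18* in astrocyte-like nuclei stood at 60.7 CPM in Control-PLX5622, from 5 UMIs, against 164 to 183 CPM in the other 3 control pools, a gap of 0.846 of the range of the 4 pools. Of 25 groups of pools looked at in this way, chance flags about 1 in 20.

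The RSD effect on *Il1r1* was higher in endothelial-like than in DG-like nuclei by 3.18 on the log2 scale, by a test of the difference itself (adjusted p 1.11e-11, edgeR, 6 pools). It rests on 31 to 64 endothelial-like nuclei per pool, and its p should not be read as the spread between so few pairs. The summed endothelial markers were also higher in RSD pools, a part that was not tested.

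*Il18r1* had 25 UMIs in 1 unnamed neuronal cluster, which no comparison between classes used. They were in 13 nuclei of Stress-IL-1R1+/+ and Stress-nIL-1R1-/-, and the other 6 pools held 0 UMIs in this cluster, among them both control pools of the same experiment, with 105 and 295 nuclei.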

How the results depend on the processing

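Each condition was 1 pool of 3 mice, and endothelial-like nuclei were few. Fits with the pair as a term set an effect against how far the RSD effect differed over pairs. A difference between pairs that both pools of a pair share does not enter that spread. The p-values for nIL-1R1-/- and PLX5622, which compare pairs, therefore do not measure the spread between pairs. The p of the difference in RSD effect between classes does not measure the spread over pairs alone. Of the results for single genes, 422 stayed the same. These were tests that kept direction and side of the threshold (or had no adjusted p) and top classes that stayed highest in CPM. Of the tests, 19 passed the threshold only under an alternative, 2 lost it and 1 reversed. The 24 values without a test that were counted as moved were not compared with an error. They were shares of nuclei once thinned, endothelial *Il1r1* CPM without the top nucleus and changes of top class. Of the counts and shares, 83 stayed and 49 moved. With RSD, edgeR called 0 of the 10 genes; the count was 3 with no filter on low counts, 2 with DESeq2, 1 when thinned, with doublets left out or with 15 principal components, and 0 to 2 when a pool was left out. Over all genes the 1002 calls became 1535 with no filter, 365 with no replicate block, 638 with DESeq2, 236 thinned, 228 with 15 principal components and 457 to 1580 when a pool was left out. With nIL-1R1-/-, 1 gene was called, and 0 with no replicate block, where *Il1r1* in DG-like nuclei had an adjusted p of 0.227 (edgeR), 0 thinned (0.0523) and 1 to 2 when a pool was left out. Over all genes the 66 calls became 130 with no filter, 6 thinned, 2 with doublets left out, 18 with 15 principal components and 21 to 274 when a pool was left out. With PLX5622, 0 genes became 3 with 15 principal components, where *Il1rapl2* in CA2/3-like nuclei had a log2 fold change of 1.72, and 0 to 1 when a pool was left out. Over all genes the 12 calls became 155 with no filter, 3 with no replicate block, 43 thinned, 21 with doublets left out, 630 with 15 principal components and 21 to 363 when a pool was left out. The replicate block (the pair of pools) moved the endothelial *Il1r1* effect of RSD from 2.47 to 2.63 without it (adjusted p 0.119). That effect passed with no filter (1.27e-08), with doublets left out (0.00454) and with 15 principal components (0.0161), and not with RLE factors (0.0796), and it could not be fitted on thinned nuclei. *Il1r1* in DG-like nuclei passed for RSD with no filter (0.00273). The *Il1rapl2* effect of nIL-1R1-/- in *Slc17a6* excitatory-like nuclei reversed from -1.16 to 0.12 when thinned and was -2.37 without Con-nIL-1R1-/- (adjusted p 0.0464). The share of *Il1r1* UMIs of named classes in DG-like nuclei was 51.8%, 70.5% thinned and 45.8 to 54.8% when a pool was left out, and that in endothelial-like nuclei was 13.4% and 9.13 to 17.9%. The cause of these differences was not tested.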
